A study of Mus musculus with 4 samples.

Results

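The genes described here are 33 transcription factors, subtype markers and axonal genes of retinal ganglion cells, chosen by symbol and leaving aside the markers of the photosensitive type. All 33 were among the 23336 genes of the table, and 32 were abundant enough to be tested. They were measured by RNA-seq in whole retinas of mice at postnatal day 8, in 2 libraries from Opn4-DTA/DTA mice and 2 libraries from wild-type (WT) littermates, all on a C57/Bl6 background. The tissue entry of the labels speaks of dissociated cells, while the study's design names extracts of whole retina. Opn4 is the melanopsin gene, and in Opn4-DTA/DTA mice both of its copies carry the diphtheria toxin A chain, so the toxin is made where the Opn4 locus is active. The series title names a role of melanopsin ganglion cells in the positioning of cones. The question here is how ganglion cell transcripts other than the photosensitive-type markers stood in the same retinas. Whether a difference goes with missing melanopsin or with a loss of the cells that make it cannot be told apart here. How many of these cells remained at this age was not measured. Separate animals per library are not stated in the labels, so the spread behind each p-value is that among 4 libraries and may be technical.

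Ganglion cells are the output neurons of the retina, and their axons form the optic nerve. Atoh7 makes progenitors competent to become ganglion cells, POU4F factors then drive differentiation and axon growth, and later factors such as Tbr1, Satb1 and Foxp2 mark subtypes. Only a minority of ganglion cells make melanopsin. Which genes of the list these cells also make was not measured, so a level need not be that of the other ganglion cells alone. Many axonal and cytoskeletal genes of the list are shared with other neurons, amacrine cells among them, so a whole-retina level is not that of ganglion cells alone. In bulk tissue, fewer cells of a type and less RNA per cell cannot be told apart.

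Total counts were 60833968 and 32032295 in Opn4-DTA/DTA libraries a and b, against 28726275 and 22202382 in WT libraries a and b. The letters only mark the larger and the smaller library of each group. Levels are normalized counts, which are gene counts divided by a size factor per library. Opn4, the targeted gene, had 0.546 and 0 normalized counts in Opn4-DTA/DTA, against 428 and 246 in WT. Bipolar cell markers, which mark retina, summed to 72833 and 78513 normalized counts in Opn4-DTA/DTA libraries and 79969 and 90572 in WT libraries. The libraries of the same group differed more than by counting noise, with a chi-square per degree of freedom of 21 in Opn4-DTA/DTA and 29.3 in WT.

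WT libraries differed more than 1.5-fold from each other for Pou4f1, Pou4f2 and Rbpms2, as also for genes not shown such as Tbr1 and Slc17a6. Promoters are shown for Pou4f1, Pou4f2 and Rbpms2, and for Spp1, the single gene of the list with a difference above 2-fold. They are RefSeq sequences on GRCm38.p6, the build also known as mm10, reaching from 250 bases before to 50 after the annotated start. They lie at chr14:104467950-104468249 on the minus strand for Pou4f1, chr8:78436598-78436897 on the minus strand for Pou4f2, chr9:65630332-65630631 on the plus strand for Rbpms2 and chr5:104434861-104435160 on the plus strand for Spp1, the first of its 2 annotated starts. Capitals mark the letters GGGCGG (the GC box bound by Sp1), CAGCTG (an E-box) and TATAAA (the TATA box), read on both strands (CCGCCC is the GC box on the other strand), where neighbouring matches may share letters.
Pou4f1: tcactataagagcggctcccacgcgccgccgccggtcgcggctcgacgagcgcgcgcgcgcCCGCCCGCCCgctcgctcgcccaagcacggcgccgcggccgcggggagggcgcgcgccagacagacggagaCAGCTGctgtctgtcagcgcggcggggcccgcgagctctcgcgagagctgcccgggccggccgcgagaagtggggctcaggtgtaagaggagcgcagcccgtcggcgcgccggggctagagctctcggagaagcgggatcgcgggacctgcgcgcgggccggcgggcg
Pou4f2: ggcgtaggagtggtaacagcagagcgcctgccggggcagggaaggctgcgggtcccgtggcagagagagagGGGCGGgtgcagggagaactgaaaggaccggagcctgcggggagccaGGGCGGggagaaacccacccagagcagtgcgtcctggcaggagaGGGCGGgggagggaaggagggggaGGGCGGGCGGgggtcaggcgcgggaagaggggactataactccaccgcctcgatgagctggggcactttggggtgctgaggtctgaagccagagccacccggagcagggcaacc
Rbpms2: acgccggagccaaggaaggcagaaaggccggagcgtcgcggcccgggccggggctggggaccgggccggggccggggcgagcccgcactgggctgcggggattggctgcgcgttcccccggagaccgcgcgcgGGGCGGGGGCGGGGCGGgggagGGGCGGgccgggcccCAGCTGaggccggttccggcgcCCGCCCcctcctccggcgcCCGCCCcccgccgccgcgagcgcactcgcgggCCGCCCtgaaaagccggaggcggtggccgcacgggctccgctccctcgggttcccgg
Spp1: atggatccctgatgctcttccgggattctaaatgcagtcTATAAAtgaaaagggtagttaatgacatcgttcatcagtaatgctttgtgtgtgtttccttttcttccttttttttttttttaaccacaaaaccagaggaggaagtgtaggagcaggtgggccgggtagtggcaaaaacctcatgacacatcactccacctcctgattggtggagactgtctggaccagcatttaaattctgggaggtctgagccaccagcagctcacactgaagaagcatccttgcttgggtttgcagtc
The Pou4f1 window held 2 GC boxes and 1 E-box, the Pou4f2 window 5 GC boxes, and the Rbpms2 window 7 GC boxes and 1 E-box. The Spp1 window held neither, and its single TATAAA began 211 bases before the start. A GC box was held by 35.7% of all 32851 RefSeq promoters of this length, this E-box by 16.3% and TATAAA by 13.6%. Of the 33 promoters found for 18 genes of the list, 16 held a GC box, 5 this E-box and 2 TATAAA. These are matches of letters in a window and not measured binding sites.

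None of the 32 tested genes passed the threshold (limma adjusted p = 0.9997 for each), where 0.02% of all 15003 genes did so in either direction (0.00667% higher and 0.0133% lower in Opn4-DTA/DTA). 1 of the 32, Spp1, had an unadjusted p under 0.05, against 1.66% of all genes tested. The authors' deposited table likewise called none of them, and gave 17 calls over all genes. Of the 32 genes, 29 had a log2 fold change above 0 in Opn4-DTA/DTA over WT and 3 were below 0. Ebf3 and Mmp17 counted as above 0 at 0.0010 and 0.0002, although their mean normalized counts were slightly lower in Opn4-DTA/DTA. The median was 0.08 (range -0.20 to 1.20), beside a median of 0.00 over all genes tested, of which 50% were above 0. The groups did not overlap for 5 of the 32 (Pou4f3, Ebf2, Elavl4, Foxp2 and Spp1), all higher in Opn4-DTA/DTA, beside 23.5% of all genes in either direction and 11.2% in that direction.

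The order of the libraries was alike for most of the list, with WT library a highest, the Opn4-DTA/DTA libraries in the middle and WT library b lowest. Both Opn4-DTA/DTA libraries lay inside the WT range for 21 of the 32 genes, against 38.2% of all genes tested. WT library a was the highest and WT library b the lowest of all 4 for 19 of them, against 18.2% of all genes. The median difference of WT library a from WT library b was 0.47 on the log2 scale, beside 0.00 over all genes, and the sign was positive for 29 of the 32, against 50.3% of all genes. The WT gap was wider than the Opn4-DTA/DTA gap for 29 of the 32, against 71.2% of all genes, and none of the 32 had both WT libraries inside the Opn4-DTA/DTA range, against 8.33%. Between Opn4-DTA/DTA libraries a and b the median difference was 0.00. Summed over the whole list, Opn4-DTA/DTA libraries had 134718 and 133099 normalized counts, and WT libraries had 146722 and 108289. The summed level of the Opn4-DTA/DTA libraries thus lay between those of the WT libraries.

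**Figure D1:**
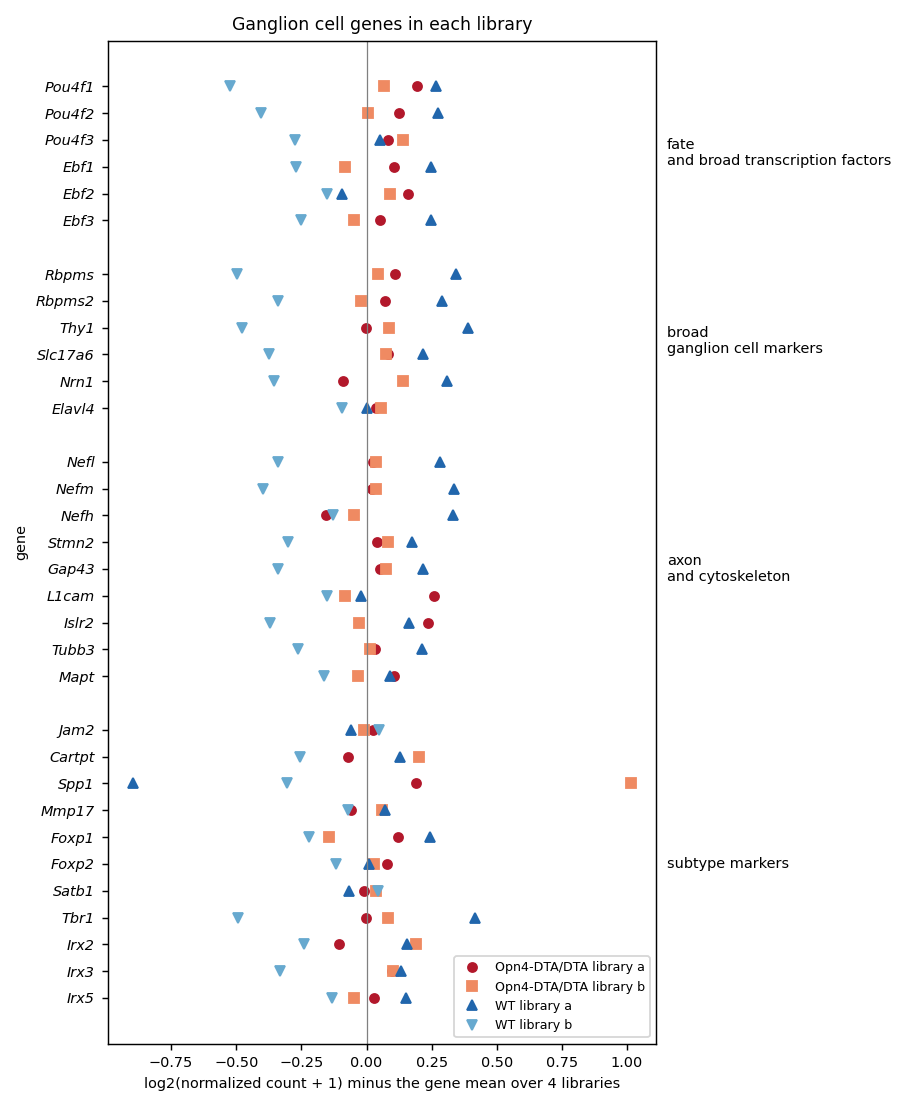
Level of each of the 32 tested genes in each of the 4 libraries, on the x axis as log2(normalized count + 1) minus the mean of the gene over the 4 libraries, with genes down the page in 4 role groups. Each point is 1 library, and for 19 genes WT library a is the rightmost and WT library b the leftmost point, while Spp1 shows another order.

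No early transcription factor was called, and all 6 tested ones had a log2 fold change above 0 (median 0.18), Ebf3 only just at 0.0010. Atoh7, the proneural factor of the ganglion cell lineage on chromosome 10, was barely detected at this age. It had 24 and 3 counts in the Opn4-DTA/DTA libraries, which is 13.1 and 3.07 normalized counts, and 7 and 2 counts in the WT libraries, or 8.12 and 3.06 normalized counts. These counts were too low to test, and a level of 3 counts corresponds to between 1.64 and 4.59 normalized counts in these libraries.

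Pou4f1 (Brn3a), a POU homeodomain factor of differentiating ganglion cells, lies on chromosome 14 from 104462325 to 104467999. It had 2692 and 2468 normalized counts in Opn4-DTA/DTA libraries a and b, and 2830.2 and 1636 in WT libraries a and b. Both Opn4-DTA/DTA values were inside the WT range, so the groups overlapped. The log2 fold change was 0.26 (SE 0.23, 95% interval -0.27 to 0.79). On the linear scale the interval runs from 17.0% lower to 72.8% higher. Pou4f2 (Brn3b), which acts early in the lineage and is needed for survival and axon outgrowth of most ganglion cells, lies on chromosome 8 from 78433009 to 78436652. Pou4f2 had 939 and 866 normalized counts in Opn4-DTA/DTA and 1041 and 650.4 in WT, again with the WT libraries at both ends. Its log2 fold change was 0.13 (SE 0.21, 95% interval -0.35 to 0.62). Pou4f3 (Brn3c), the factor of a smaller subset and of cochlear hair cells, was less abundant, with 218 and 227 normalized counts in Opn4-DTA/DTA and 214 and 169.9 in WT. Here both Opn4-DTA/DTA libraries lay above both WT libraries, by a small step over WT library a (log2 fold change 0.22, SE 0.18, 95% interval -0.20 to 0.64).

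The early B cell factors act downstream of the POU4F factors in ganglion cell differentiation and are also expressed in other inner retinal neurons. Ebf1 had 923 and 809 normalized counts in Opn4-DTA/DTA and 1019 and 710.1 in WT, and Ebf3 averaged 3423 ± 168 in Opn4-DTA/DTA and 3469.7 ± 840.2 in WT (SD, n = 2 each). Both repeated the order with WT at the extremes, and their log2 fold changes were 0.02 and 0.00. Ebf2 was the exception, with WT libraries close together at 55.7 and 53.6 normalized counts and Opn4-DTA/DTA libraries above them at 66.6 and 63.4. Its log2 fold change of 0.25 had an SE of 0.24, and at this level the fit leaves an interval of -0.30 to 0.80.

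Broad ganglion cell markers showed the widest gap between the WT libraries of the 4 role groups, with a median log2 difference of 0.65 between WT libraries a and b. All 6 had a log2 fold change above 0 in Opn4-DTA/DTA over WT (median 0.09), and none was called. Rbpms, an RNA-binding protein used to count ganglion cells in the retina, lies on chromosome 8 from 33782644 to 33929841. It had 2735 and 2618 normalized counts in Opn4-DTA/DTA and 3222 and 1797 in WT. The groups overlapped, with a log2 fold change of 0.15 (SE 0.24). The 95% interval runs from 24.2% lower to 63.1% higher. Its paralogue Rbpms2 averaged 1749 ± 81.0 in Opn4-DTA/DTA and 1729 ± 526 in WT (SD, n = 2 each).

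Thy1, a cell surface glycoprotein long used as a ganglion cell marker, had 5345 and 5679 normalized counts in Opn4-DTA/DTA and 7011 and 3841 in WT. The WT libraries thus differed 1.83-fold from each other, while the log2 fold change between genotypes was 0.09 (SE 0.24). Slc17a6, the vesicular glutamate transporter VGLUT2 that loads synaptic vesicles of ganglion cells, had 4182 and 4155 normalized counts in Opn4-DTA/DTA, and 4587 and 3041 in WT. Its Opn4-DTA/DTA libraries were nearly equal and lay between those of WT (log2 fold change 0.16, SE 0.18). Nrn1, encoding the neurite outgrowth factor neuritin, had 1388 and 1626 normalized counts in Opn4-DTA/DTA and 1829 and 1154 in WT, with the same overlap. Elavl4 (HuD), a neuronal RNA-binding protein that amacrine cells also make, varied far less. It had 3396 and 3434 normalized counts in Opn4-DTA/DTA, just above 3307 and 3101 in WT, a log2 fold change of 0.09 (SE 0.09).

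Axonal and cytoskeletal genes had the highest summed level of the 4 role groups, 87081 and 84416 normalized counts in Opn4-DTA/DTA and 96113 and 68412 in WT. Of 9 tested none was called, 8 had a log2 fold change above 0 and 1 was below 0 (median 0.07). Their groups overlapped in every case. The neurofilament subunit genes Nefl and Nefm lie next to each other on chromosome 14, from 68083884 to 68087737 on the plus strand and from 68119545 to 68125004 on the minus strand. Nefl had 18197 and 18349 normalized counts in Opn4-DTA/DTA and 21732 and 14129 in WT. Nefm had 10497 and 10601 in Opn4-DTA/DTA and 13059 and 7852 in WT. In both genes the Opn4-DTA/DTA libraries were nearly equal and the WT libraries stood on either side (log2 fold change 0.06 with SE 0.18 for Nefl, and 0.06 with SE 0.21 for Nefm). The spans given above lie 31807 bases apart and share no stretch. GENCODE M21, in contrast, lets their exons overlap by 1108 bases on opposite strands. Whether the authors' gene models hold that overlap, or the counting used strand, is not given in the sources used here.

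Nefh, the heavy neurofilament subunit that is most abundant in large-bodied ganglion cells such as alpha cells, was the one axonal gene with a lower mean in Opn4-DTA/DTA. It had 1554 and 1677 normalized counts in Opn4-DTA/DTA and 2180.4 and 1587 in WT. One WT library lay inside the Opn4-DTA/DTA range and the other well above it (log2 fold change -0.20, SE 0.15, 95% interval -0.56 to 0.16). Gap43, a growth cone protein, had 5544 and 5629.7 normalized counts in Opn4-DTA/DTA and 6207 and 4221 in WT. Stmn2, a tubulin-binding protein of growing axons, averaged 12532 ± 257 in Opn4-DTA/DTA and 11656 ± 2699.9 in WT (SD, n = 2 each). Tubb3, the neuronal class III beta tubulin, averaged 12534 ± 115 in Opn4-DTA/DTA and 12277 ± 2821 in WT (SD, n = 2 each). For these 3 genes the WT libraries again enclosed those of Opn4-DTA/DTA.

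The axon adhesion molecule L1cam, the axonal membrane protein Islr2 (Linx) and Mapt, the microtubule protein tau, differed in that Opn4-DTA/DTA library a was the highest of the 4. L1cam had 4477 and 3535 normalized counts in Opn4-DTA/DTA and 3687 and 3368 in WT. Its log2 fold change of 0.17 (SE 0.13) was 0.35 without Opn4-DTA/DTA library b and 0.00 without library a. Islr2 had 5196 and 4323 normalized counts in Opn4-DTA/DTA and 4939.9 and 3411 in WT (log2 fold change 0.21, SE 0.18). Mapt averaged 15891 ± 1073 in Opn4-DTA/DTA and 15142 ± 1878 in WT (SD, n = 2 each). In GENCODE M21 exons of L1cam share 100 bases with Arhgap4 and those of Islr2 share 181 bases with Islr, on the same strand, and exons of Nrn1 share 501 bases with Fars2 on the other, so a part of these counts is uncertain.

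Of the 11 subtype markers none was called, and 9 had a log2 fold change above 0 (median 0.08). Spp1 stood apart from the rest of the list. Spp1 encodes osteopontin, a secreted matrix protein that marks alpha ganglion cells and is also made by activated microglia and macrophages. It lies on chromosome 5 from 104435111 to 104441053. Spp1 had 1719 and 3050.2 normalized counts in Opn4-DTA/DTA and 809 and 1219.7 in WT. Both Opn4-DTA/DTA libraries were above both WT libraries, and the means differed 2.35-fold. By fitted fold change, 0.48% of all genes differed at least 2-fold and 2.35% at least 1.5-fold, in either direction. The log2 fold change was 1.20 (SE 0.28, 95% interval 0.55 to 1.86, unadjusted p = 0.00313, limma adjusted p = 0.9997). It ranked 20 of 15003 genes by p and did not pass the correction, in limma or in the authors' deposited table, where its p of 0.0177 became an adjusted p of 0.9997. The shrunken log2 fold change in the authors' deposited table was 0.09.

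The Spp1 difference was carried more by Opn4-DTA/DTA library b. With that library left out the log2 fold change was 0.79 (limma adjusted p = 0.242), and it passed without Opn4-DTA/DTA library a (1.62, limma adjusted p = 1.52e-08), also when WT library a was left out (0.91, limma adjusted p = 0.0305) or WT library b (limma adjusted p = 0.000433). The direction was the same in all 4 fits, as it must be where the groups do not overlap. Spp1 was also one of 3 genes of the list with less in WT library a than in WT library b. Microglial markers were measured beside it, because microglia can make osteopontin. Of 10 microglial markers 8 were above 0 and none was called (median log2 fold change 0.13). Their summed level was 3179.6 and 3619 normalized counts in Opn4-DTA/DTA and 3675 and 2645 in WT, and none of the 10 was at 0. The complement gene C1qa had 441 and 513 normalized counts in Opn4-DTA/DTA and 504 and 347 in WT. The part of microglia in the Spp1 level was not tested.

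Kcng4 and Nefh, also known from alpha ganglion cells, had lower means in Opn4-DTA/DTA, unlike Spp1. Kcng4, a potassium channel subunit of alpha cells from the wider list described below, had 168 and 212 normalized counts in Opn4-DTA/DTA and 241 and 262 in WT. Both Opn4-DTA/DTA libraries were thus under both WT libraries (log2 fold change -0.41, SE 0.18, limma adjusted p = 0.9997). The values of Nefh stand with the neurofilament genes above. The groups overlapped for Nefh, and its log2 fold change was 0.025 without WT library a. Which cells the counts of Kcng4, Nefh and Spp1 came from was not measured.

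Tbr1, a T-box factor of ganglion cells with dendrites in the OFF layer, had the largest gap between WT libraries of all subtype markers. It had 200.4 and 213 normalized counts in Opn4-DTA/DTA and 268 and 142 in WT. The genotypes overlapped, and with an SE of 0.28 the 95% interval of the log2 fold change ran from -0.59 to 0.74. Jam2, the adhesion molecule of the J type of direction-selective cells, varied little, with 10735 and 10489.9 normalized counts in Opn4-DTA/DTA and 10120.0 and 10899.5 in WT (log2 fold change 0.01, SE 0.09). Its 95% interval ran from -0.20 to 0.23, and the groups overlapped. Jam2 averaged 10509.7 normalized counts in WT, above 2509.6 for the broad marker Rbpms, so its level need not be that of J cells alone. Cartpt, the neuropeptide precursor of ON-OFF direction-selective cells, had 1339 and 1619 normalized counts in Opn4-DTA/DTA and 1538 and 1178 in WT, with Opn4-DTA/DTA library b the highest of the 4 and the groups overlapping.

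The forkhead factors and other subtype genes showed small differences between genotypes. Foxp1 had 1247 and 1037 normalized counts in Opn4-DTA/DTA and 1359 and 983 in WT, so the groups overlapped. Foxp2, a marker of the F type ganglion cells, averaged 356 ± 8.89 in Opn4-DTA/DTA and 331 ± 20.5 in WT (SD, n = 2 each), with the groups narrowly apart. Satb1, a chromatin organizer of ON-OFF direction-selective cells, averaged 2786 ± 64.4 in Opn4-DTA/DTA and 2738 ± 149.7 in WT (SD, n = 2 each). Mmp17, a membrane-bound matrix metalloproteinase, averaged 1062 ± 62.9 in Opn4-DTA/DTA and 1062 ± 75.4 in WT (SD, n = 2 each). None of these genes was called.

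The Iroquois homeobox genes Irx2, Irx3 and Irx5 mark groups of ganglion cells, and Irx5 is also known from bipolar cells. Irx3 had 188 and 188 normalized counts in Opn4-DTA/DTA and 193 and 139 in WT (log2 fold change 0.20, SE 0.20). Irx2 averaged 215 ± 31.2 in Opn4-DTA/DTA and 204 ± 39.7 in WT, and Irx5 averaged 635 ± 23.9 in Opn4-DTA/DTA and 645 ± 90.1 in WT (SD, n = 2 each). None of the 3 separated the genotypes, and only Irx2 had its Opn4-DTA/DTA libraries partly outside the WT range.

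**Figure D2:**
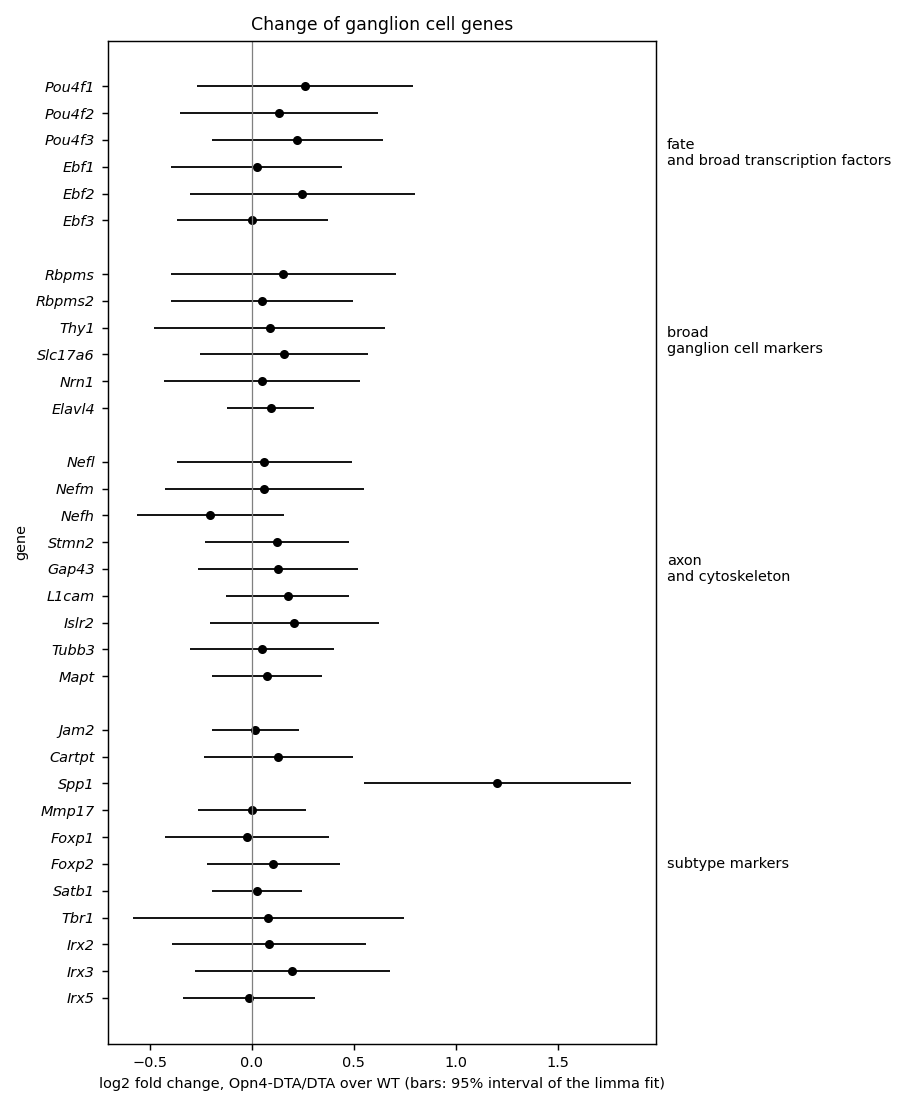
Log2 fold change of Opn4-DTA/DTA over WT for the 32 tested genes in 4 role groups, with bars for the 95% interval of the limma fit (2 libraries per group). The intervals of 31 genes include 0, and that of Spp1 runs from 0.55 to 1.86.

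The 95% intervals given next hold for single genes. A call needed more, since p was adjusted over 15003 genes, and Spp1 was not called although its interval lay above 0. The 95% interval included 0 for 31 of the 32 genes. For 31 genes, all but Tbr1, it excluded a 1.5-fold lower level in Opn4-DTA/DTA, and for all 32 a 2-fold lower level, in a fit with all libraries. A 1.5-fold higher level was excluded for 22 of the 32. The SE ranged from 0.09 to 0.28 on the log2 scale. In limma the variance of each gene is drawn toward that of other genes of like level. The median gap between the WT libraries, without sign, was 0.47 over the list and 0.20 over all genes tested. Errors of genes with a wide gap may thus be too small, and the exclusions hold only under this fit. The gap between the WT libraries was larger than the absolute log2 fold change for 29 of the 32, against 76.9% of all genes tested.

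Per length, Tubb3 was the most abundant gene of the list, at 6710.1 ± 61.4 normalized counts per kb of exon in Opn4-DTA/DTA and 6572 ± 1510 in WT (SD, n = 2 each). It was followed by Nefl with 5406 ± 31.8 per kb in Opn4-DTA/DTA and 5305 ± 1591 in WT, whose range over the libraries overlapped with that of Tubb3. Gap43 came next with 3668 ± 39.8 per kb in Opn4-DTA/DTA and 3423 ± 922 in WT, and its range did not reach that of Nefl. At the low end were Ebf2, with 9.39 ± 0.323 per kb in Opn4-DTA/DTA and 7.89 ± 0.218 in WT, and Foxp2, with 21.8 ± 0.544 per kb in Opn4-DTA/DTA and 20.3 ± 1.26 in WT. In this order of 32 genes, 21 of 31 neighbouring pairs had overlapping ranges, so their order is not resolved. Exon lengths are those of GENCODE M21 and may differ from the models the authors counted on. Atoh7 is left out, since its span in the table is 450 bases against 1629 exonic bases in GENCODE.

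**Figure D3:**
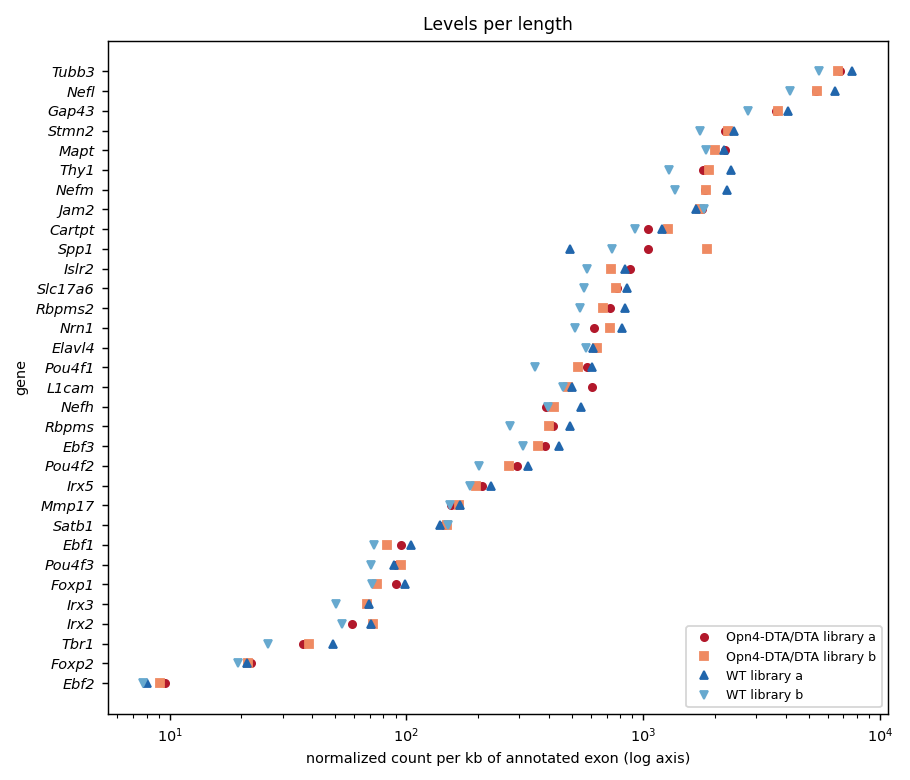
Normalized count per kb of annotated exon on a log axis for 32 genes ordered by their mean, with 1 point per library. Mean levels in Opn4-DTA/DTA span from 9.39 per kb for Ebf2 to 6710.1 per kb for Tubb3.

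The sign and the number of calls depended on which WT library was kept. Without WT library a, 30 of the 32 genes were above 0 (median log2 fold change 0.34) and 12 passed the threshold, all higher in Opn4-DTA/DTA, where 2.04% of all genes passed and 47.9% were above 0. The 12 were Nefm, Thy1, Nefl, Rbpms2, Rbpms, Pou4f1, Pou4f2, Islr2, Gap43, Stmn2, Slc17a6 and Spp1. Without WT library b, 8 were above 0 and 24 below (median -0.14), and Nefh (-0.43) and Thy1 (-0.35) passed as lower and Spp1 as higher, where 1.58% of all genes passed and 49.7% were above 0. Thy1 was thus called in opposite directions. Leaving out Opn4-DTA/DTA library a gave a median of 0.08 with 26 genes above 0, and Spp1 alone passed, where 0.0667% of all genes passed and 50.4% were above 0. Leaving out Opn4-DTA/DTA library b gave a median of 0.10 with 27 above 0 and none past the threshold, where 0.127% of all genes passed and 50.4% were above 0. Fits that leave out a library assume that the lone library of its group varies like the other group. The sign was the same in all 4 fits for 6 genes, Pou4f3, Ebf2, Elavl4, L1cam, Foxp2 and Spp1. For all of these but L1cam the groups did not overlap, so leaving out a library could not turn the sign.

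**Figure D4:**
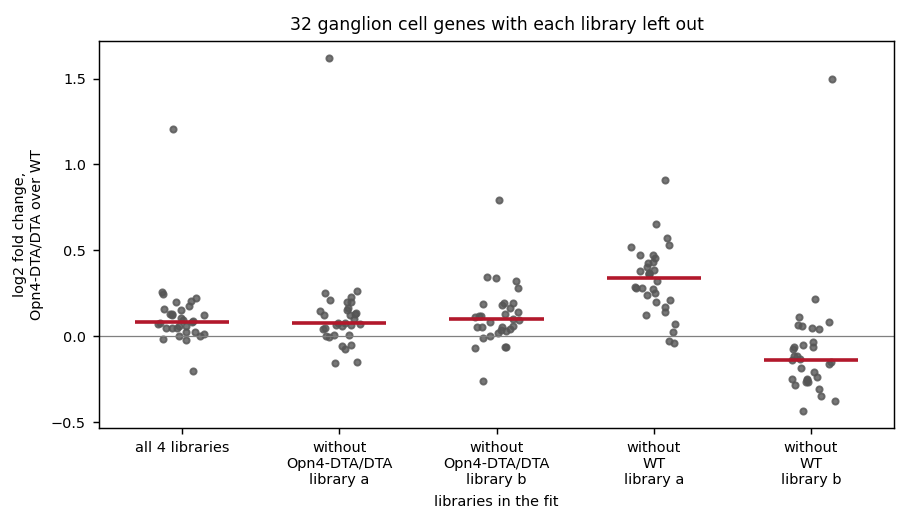
Log2 fold change of Opn4-DTA/DTA over WT of the 32 tested genes (points, spread sideways for visibility) with all 4 libraries and with each library left out. Red lines are medians, at 0.08 with all libraries, 0.34 with WT library a left out and -0.14 with WT library b left out.

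Markers of other cells also differed between the WT libraries. Pigment epithelium markers summed to 7638 and 6035 normalized counts in Opn4-DTA/DTA and to 12679 and 5676 in WT, and all 11 were higher in WT library a than in WT library b (median log2 difference 1.05). All 5 astrocyte markers were higher in WT library a too (median 0.59), with sums of 10772 and 10377 in Opn4-DTA/DTA and 11366 and 8628 in WT. The same held for all 10 microglial markers (median 0.53) and for 7 of 8 vessel markers (median 0.46). Amacrine markers differed less between WT libraries (median 0.07), and 9 of 14 were above 0 between genotypes (median 0.08). Bipolar markers ran the other way between the WT libraries (median -0.21). Between genotypes all 10 bipolar markers (median -0.21) and all 10 rod markers (median -0.20) were below 0 and none was called. The groups were apart for 6 in each list, all lower in Opn4-DTA/DTA, beside 12.3% lower and 23.5% in either direction over all genes tested. In the ganglion cell list 29 of the 32 genes were above 0, beside 50% of all genes tested. Of 6 tested optic nerve oligodendrocyte markers, 3 were above 0 between genotypes, and Mog was at 0 or 1 count in each library. The part of any of these cells in the ganglion cell levels was not tested.

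**Figure D5:**
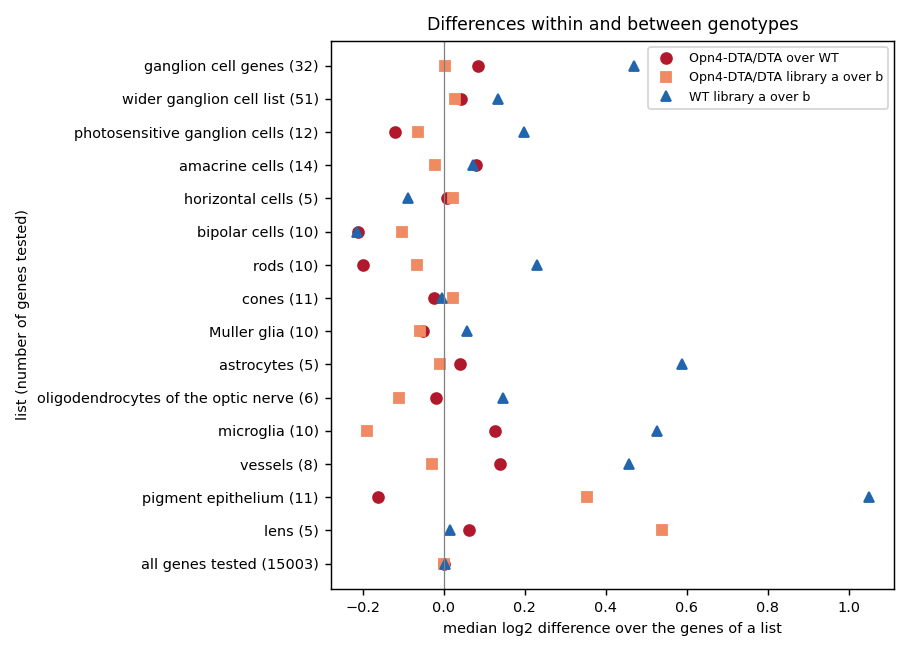
Median log2 difference over the genes of each list, for Opn4-DTA/DTA over WT (circles), Opn4-DTA/DTA library a over b (squares) and WT library a over b (triangles), with the number of genes tested in brackets. For the ganglion cell genes the difference between WT libraries is 0.47 and that between genotypes 0.08.

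A wider list of 52 ganglion cell and axon genes outside the 33 held 51 genes of the table, all tested, and again none was called. Of these 51, 33 had a log2 fold change above 0 and 18 below (median 0.04). Both Opn4-DTA/DTA libraries lay inside the WT range for 25 of them, and the median difference between WT libraries a and b was 0.13. The groups did not overlap for 10, of which 6 were higher and 4 lower in Opn4-DTA/DTA, beside 11.2% higher and 12.3% lower (23.5% in all) over all genes tested. The lowest p belonged to Kcnip2, a potassium channel interacting protein, with 99.9 and 115 normalized counts in Opn4-DTA/DTA and 78.9 and 61.2 in WT (log2 fold change 0.62, SE 0.23). Col25a1, a transmembrane collagen, followed with 578 and 503 normalized counts in Opn4-DTA/DTA, above 398 and 458 in WT (log2 fold change 0.34, SE 0.14). Prph, the neuronal intermediate filament peripherin, had 16.4 and 17.4 normalized counts in Opn4-DTA/DTA and 40.6 and 24.5 in WT. Its level was low, and its log2 fold change of -0.87 had an SE of 0.37. Tfap2d, a transcription factor of a ganglion cell subset, had 331 and 335 normalized counts in Opn4-DTA/DTA and 292 and 266 in WT. The limma adjusted p of these genes was 0.9997.

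Opn4 itself, the marker of the photosensitive cells, stood 1.74-fold higher in WT library a than in WT library b. Pou4f1 (1.73-fold) and Rbpms (1.79-fold) had gaps of near size, but other genes of both lists did not. Over the 12 photosensitive markers the median difference between WT libraries a and b was 0.20 on the log2 scale (range -0.23 to 0.87). It was 0.47 over the 32 ganglion cell genes (range -0.59 to 0.91). Of 12 photosensitive cell markers, 9 were below 0 between genotypes and 3 above (median log2 fold change -0.12 with Opn4 included), whereas 29 of the 32 ganglion cell genes were above 0. Against WT library a alone the median log2 difference was -0.18 for the photosensitive markers and -0.14 for the 32 genes. Against WT library b alone it was -0.08 and 0.34, so the contrast in sign depended on WT library b. The difference between these lists was not tested.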

How the data were processed

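Oligo-dT selected RNA was made into directional libraries and read on a HiSeq2500, per the labels' protocols. The submitters' processing notes list FastQC, STAR, HTSeq, DESeq2 and mm10 with no version or role. For each group the deposited table gives the authors' signal, which is gene counts scaled by size factors and averaged over 2 libraries. The authors' shrunken log2 fold change, its standard error and test statistic (2 scores) and their p-value and adjusted p-value are deposited as well.

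Library values were recovered by solving each deposited group mean as whole multiples of 2 fixed steps (relative tolerance 3e-13), where a single pair solved all 18327 Opn4-DTA/DTA and all 17757 WT means above 0. On simulated pairs this returned 4903 of 4903 and 4890 of 4890. Recovered libraries cannot be tied to sample labels.

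The 15003 genes averaging 10 or more normalized counts were fitted as log2(normalized count + 1) in limma 3.58.1 (R 4.3.3, mean-variance trend, Opn4-DTA/DTA minus WT, Benjamini-Hochberg threshold 0.05). Fold changes on this scale understate those of low genes. The fit was also run on simulated data, with genes drawn independently at the same spread. That run checks the code and not the errors of genes that shift together between libraries. Library values are given for the 3 genes with the lowest p and the 3 with the widest WT gap in each role group, plus 9 fixed markers, and for the 5 lowest p of the wider list. Members and lists were chosen with earlier results of these data known. The filter, pseudocount, scaling, trend and libraries were varied. A sheet repeating rows of the table was not used.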

Additional observations from a re-analysis of the deposited data

How the results depend on the processing

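With 2 libraries a group, the errors hold both the gaps between libraries and, for genes of low level such as Ebf2 and Atoh7, few counts. No paired analysis was possible because the groups share no replicate numbers in the labels and recovered libraries cannot be tied to samples. Without a mean-variance trend 0 of all genes passed the threshold (limma), against 3 with it. Leaving out a library gave 10 to 306 calls over all genes, 0 to 12 called genes of the list, 8 to 30 genes above 0 and a median of -0.14 to 0.34. For the wider list it gave 0 to 4 calls and a median of -0.025 to 0.13. Scaling by library totals turned Foxp1 to 0.0052 and Irx5 to 0.012, and 31 genes were then above 0 with a median of 0.11. The median over all genes tested also rose, to 0.028, so this was a shift of the whole scale. Filters and pseudocounts reversed no gene of the list.

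Of the 32 genes, 26 changed sign on leaving out some library, with the following ranges of log2 fold change. Among transcription factors Pou4f1 ran from -0.13 to 0.66, Pou4f2 from -0.21 to 0.47, Ebf1 from -0.24 to 0.28 and Ebf3 from -0.25 to 0.25. Among broad markers Rbpms ran from -0.27 to 0.57, Rbpms2 from -0.27 to 0.36, Thy1 from -0.35 to 0.52, Slc17a6 from -0.14 to 0.46 and Nrn1 from -0.28 to 0.38. Among axonal genes Nefl ran from -0.25 to 0.37, Nefm from -0.31 to 0.43, Nefh from -0.43 to 0.025, Stmn2 from -0.11 to 0.36 and Gap43 from -0.15 to 0.40. Islr2 ran from -0.060 to 0.47, Tubb3 from -0.19 to 0.29 and Mapt from -0.053 to 0.20. Among subtype markers Jam2 ran from -0.039 to 0.068, Cartpt from -0.063 to 0.32, Mmp17 from -0.072 to 0.073, Foxp1 from -0.26 to 0.21, Satb1 from -0.030 to 0.082 and Tbr1 from -0.37 to 0.53. Irx2 ran from -0.12 to 0.28, Irx3 from -0.035 to 0.43 and Irx5 from -0.16 to 0.13. The cause of these reversals was not tested.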
